A study of Mus musculus with 6 samples.

Results

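A set of 50 genes of the interferon response and of antigen presentation were followed in RNA from whole pancreatic islets of mice with and without an alpha-cell deletion of Klf4. The genes were taken from a written list in 3 groups, and all 50 were found by symbol among the 55536 genes of the count table: 31 interferon response genes, 13 genes of the major histocompatibility complex (MHC) class I pathway and 6 of the class II pathway. All 50 passed the filter of at least 10 counts over the 6 libraries, and all were given an adjusted p-value. The rule for choosing them uses no measured value, but the list was chosen with earlier results of these data known.

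The 3 control libraries came from Klf4+/+;Gcg-iCre mice and the 3 knockout libraries from Klf4fl/fl;Gcg-iCre mice, on the strain that the series spells C57B1/6J. Klf4 encodes a zinc-finger transcription factor, and the study set out to find genes it regulates in alpha cells. Cre recombinase was driven from the glucagon gene, Gcg, so recombination is directed to alpha cells, and the controls carried the same driver with intact Klf4 alleles. The labels used here give neither age nor sex, and nothing in them says that the libraries of a group came from separate animals, so the p-values measure the spread between these libraries only. The islets were sequenced whole as polyadenylated RNA, so beta, delta, endothelial and immune cells contributed together with alpha cells, and fewer cells of a type cannot be told apart from less RNA per cell.

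Type I and type III interferons bind their receptors and activate a complex that holds STAT2 and IRF9 and binds the interferon-stimulated response element (ISRE) at target genes that restrict viruses. Type II interferon acts through gamma-activated sites (GAS) and raises guanylate-binding proteins, immunity-related GTPases and the MHC genes. Class I molecules, a heavy chain with B2m, display peptides made by the proteasome on nearly all nucleated cells, under the transactivator NLRC5. Class II molecules are held mainly by antigen-presenting cells such as macrophages, dendritic cells and B cells, under the transactivator CIITA, and class I display on islet cells has long been studied in autoimmune diabetes.

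Promoter sequence is shown for 6 genes because it displays the elements by which the 3 groups are known. RefSeq promoter windows (GRCm38.p6, 250 bases before to 50 after a gene's start) were matched by symbol for 40 of the 50 genes, 26 of the interferon response, 11 of class I and 3 of class II. Of each, the 250 bases before the start are printed 5′ to 3′ on the gene's strand, with matches to the motifs named below in capitals. The Isg15 window (chr4:156200819-156201068, minus strand) holds 3 overlapping ISRE matches. Ifit3 (chr19:34583279-34583528, plus strand) and Ifit3b (chr19:34607707-34607956, plus strand) hold 2 ISRE matches and 1 Y box each, and the B2m window (chr2:122147437-122147686, plus strand) holds 1 ISRE match and 1 Y box. H2-Q4 (chr17:35379367-35379616, plus strand) holds 2 Y boxes. H2-Eb1 (chr17:34305617-34305866, plus strand) holds the X box core and 2 Y boxes.
Isg15: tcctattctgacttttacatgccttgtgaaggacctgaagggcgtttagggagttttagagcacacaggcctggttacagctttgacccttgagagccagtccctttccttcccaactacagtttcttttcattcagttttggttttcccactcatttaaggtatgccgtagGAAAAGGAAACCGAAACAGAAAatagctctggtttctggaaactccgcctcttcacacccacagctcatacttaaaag
Ifit3: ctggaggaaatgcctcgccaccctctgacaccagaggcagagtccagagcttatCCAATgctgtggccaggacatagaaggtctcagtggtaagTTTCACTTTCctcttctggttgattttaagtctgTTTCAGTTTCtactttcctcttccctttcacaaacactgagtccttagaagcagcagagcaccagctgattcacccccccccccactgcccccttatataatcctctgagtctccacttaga
Ifit3b: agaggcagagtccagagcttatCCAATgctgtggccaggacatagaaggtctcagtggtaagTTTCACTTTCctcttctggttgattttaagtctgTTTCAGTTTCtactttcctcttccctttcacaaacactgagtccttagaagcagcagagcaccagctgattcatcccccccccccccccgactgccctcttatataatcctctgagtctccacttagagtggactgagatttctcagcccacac
B2m: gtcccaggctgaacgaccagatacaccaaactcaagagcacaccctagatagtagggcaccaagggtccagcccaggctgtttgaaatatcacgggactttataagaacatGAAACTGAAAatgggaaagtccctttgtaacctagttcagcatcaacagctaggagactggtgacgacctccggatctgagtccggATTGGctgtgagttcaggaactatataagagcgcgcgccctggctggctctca
H2-Q4: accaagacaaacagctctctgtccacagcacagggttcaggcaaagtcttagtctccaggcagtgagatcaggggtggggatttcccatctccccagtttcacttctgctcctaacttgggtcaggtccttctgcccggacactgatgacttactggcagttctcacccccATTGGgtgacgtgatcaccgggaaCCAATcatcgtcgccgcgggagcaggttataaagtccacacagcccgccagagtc
H2-Eb1: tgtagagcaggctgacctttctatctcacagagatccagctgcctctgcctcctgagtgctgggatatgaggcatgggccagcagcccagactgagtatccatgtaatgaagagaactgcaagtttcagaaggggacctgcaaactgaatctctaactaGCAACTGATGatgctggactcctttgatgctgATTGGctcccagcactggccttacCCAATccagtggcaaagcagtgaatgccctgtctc

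The motifs were searched on both strands of the whole 300-base windows. The ISRE pattern, GAAA and GAAA with 2 bases of any kind between them, was found in 17 of 26 interferon response genes (65.4%), 2 of 11 class I genes (18.2%, B2m and H2-T23) and 0 of 3 class II genes, against 3.99% of the 27025 genes with a window. The GAS pattern TTCNNNGAA was found in 9 of 26, 1 of 11 and 0 of 3, against 9.55% of those genes. The Y box CCAAT was found in 11 of 26, 9 of 11 and 3 of 3, against 41.1%, and the X box core, GCAAC and GATG with 1 base between them, only in H2-Eb1 among the 40, against 0.215%. These are letter matches and not shown binding sites. The Ifit3 and Ifit3b windows share an unbroken run of 169 identical bases, which includes both ISRE matches and the Y box.

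Totals ran from 101277200 to 110243918 counts per library. Klf4, the targeted gene, was at 3148, 2879 and 2015 normalized counts in controls 1 to 3 and 2340, 2540 and 2277 in knockouts 1 to 3, a log2 fold change of -0.17 ± 0.15 (SE) that did not pass DESeq2 (adjusted p = 0.774), so its level in whole islets did not check the labels. Xist had 73469 to 108994 counts in the control libraries and 12 to 32 in the knockout libraries, and 4 Y-linked genes had 0 counts in each control library and 15756 to 17090 in the knockout libraries. Sex and genotype cannot be told apart in this comparison, and every difference reported here is a difference between both. Knockout 1 also stood apart by liver transcripts: 8 hepatocyte genes summed to 88409 normalized counts there, to 3535 in knockout 2, and to between 410 and 600 in the other 4 libraries.

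The 3 groups overlapped widely in level. Levels were compared between genes in TPM, counts divided by exon length and scaled to the same total in each library. B2m, the light chain of every class I molecule, was the highest at 315 ± 37.1 TPM in control and 396 ± 86.9 in knockout libraries (SD, n = 3 each). The heavy chains H2-K1, at 243 ± 16.8 and 288 ± 37.9 TPM, and H2-D1, at 241 ± 13.2 and 278 ± 33.3, came next over all 6 libraries. Cd74, the invariant chain that escorts class II molecules, was the fourth at 251 ± 20.1 and 246 ± 29.0 TPM. Among these, H2-K1, H2-D1 and Cd74 lay within 1 SD of each other in controls. The transactivators were the rarest of their groups over all 6 libraries, with Nlrc5 at 0.582 TPM and Ciita at 0.471. Median levels over both genotypes were 5.73 TPM for the interferon response, with Isg20 at the top (65.9) and Oas3 at the bottom (0.131), 25.7 for class I and 44.8 for class II.

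**Figure D1:**
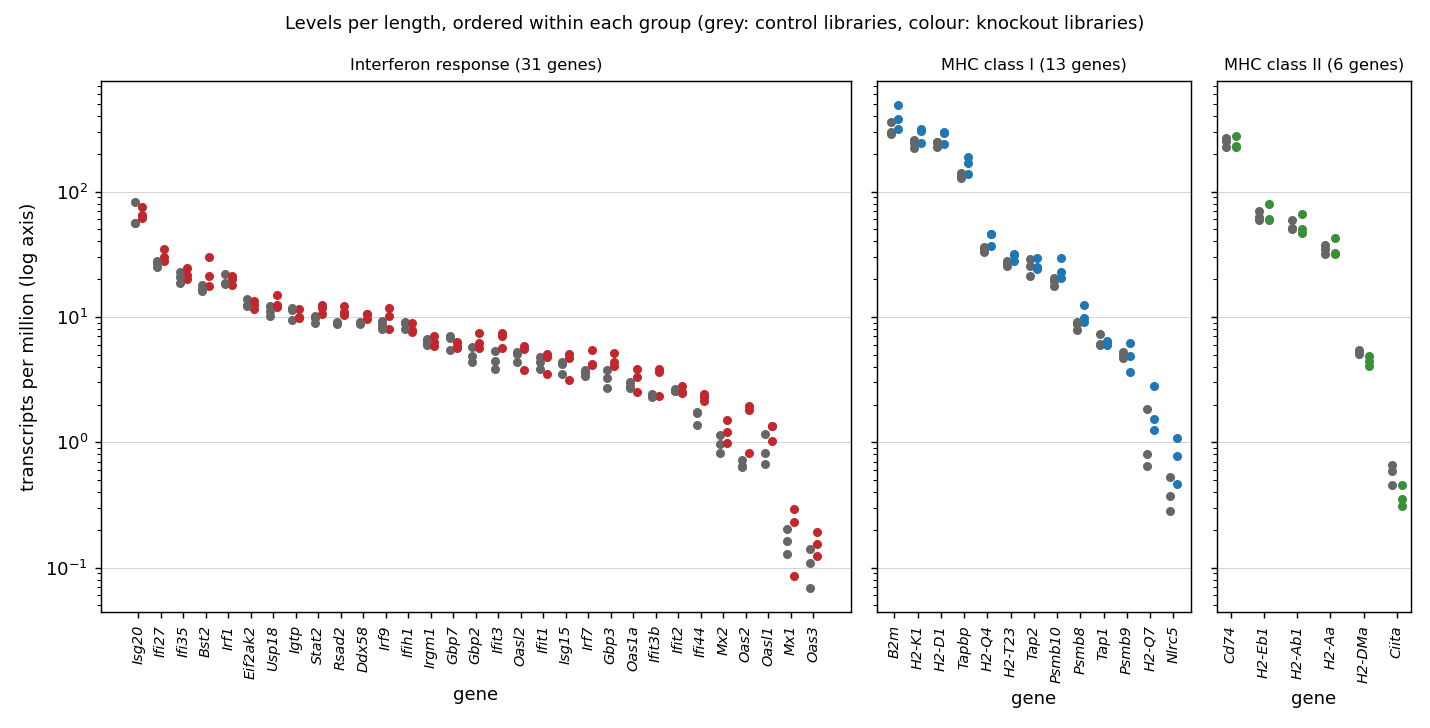
Level of each of the 50 genes in TPM on a log axis, 1 point per library, with controls in grey and knockouts in colour, ordered by mean level within each group. B2m, H2-K1, H2-D1 and Cd74 stand above 200 TPM, and Oas3 at the foot of the interferon response had a mean of 0.131.

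Most interferon response and class I genes had fold changes above 0 in the knockout libraries, and few of them passed the test. In DESeq2, 2 of 31 interferon response genes rose at an adjusted p under 0.05 (Oas2 and Ifi44), 1 of 13 class I genes rose (H2-Q4), and no class II gene passed. No gene of the 50 passed as lower. Over all 17797 genes tested, 2.19% passed in DESeq2, 1.53% as higher and 0.657% as lower. The edgeR quasi-likelihood test called none of the 50, with lowest adjusted p-values of 0.250, 0.250 and 0.414 in the 3 groups, and it called 0.115% of the 25210 genes it tested.

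The log2 fold change was above 0 for 27 of 31 interferon response genes (87.1%), 11 of 13 class I genes (84.6%) and 3 of 6 class II genes, against 48.4% of all genes tested. Median log2 fold changes were 0.22, 0.28 and -0.01, beside -0.01 over all genes. An unadjusted DESeq2 p under 0.05 in the higher direction was reached by 13 of 31 and 10 of 13 genes and by no class II gene, against 6.51% of all genes; in the lower direction it was reached by 1 gene, Ciita, against 5.03%. By edgeR, 13, 7 and 1 genes had an unadjusted p under 0.05, against 2012 of the same 17797 genes and 9.48% of the 25210 genes that edgeR tested. The 1 class II gene was Ciita, with a fold change below 0. All 3 knockout libraries lay above all 3 controls for 12 interferon response genes, 3 class I genes (H2-Q4, H2-T23 and Tapbp) and no class II gene, against 9.06% of all genes. All 3 lay below all 3 controls for 2 genes, both of class II, against 8.23%.

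**Figure D2:**
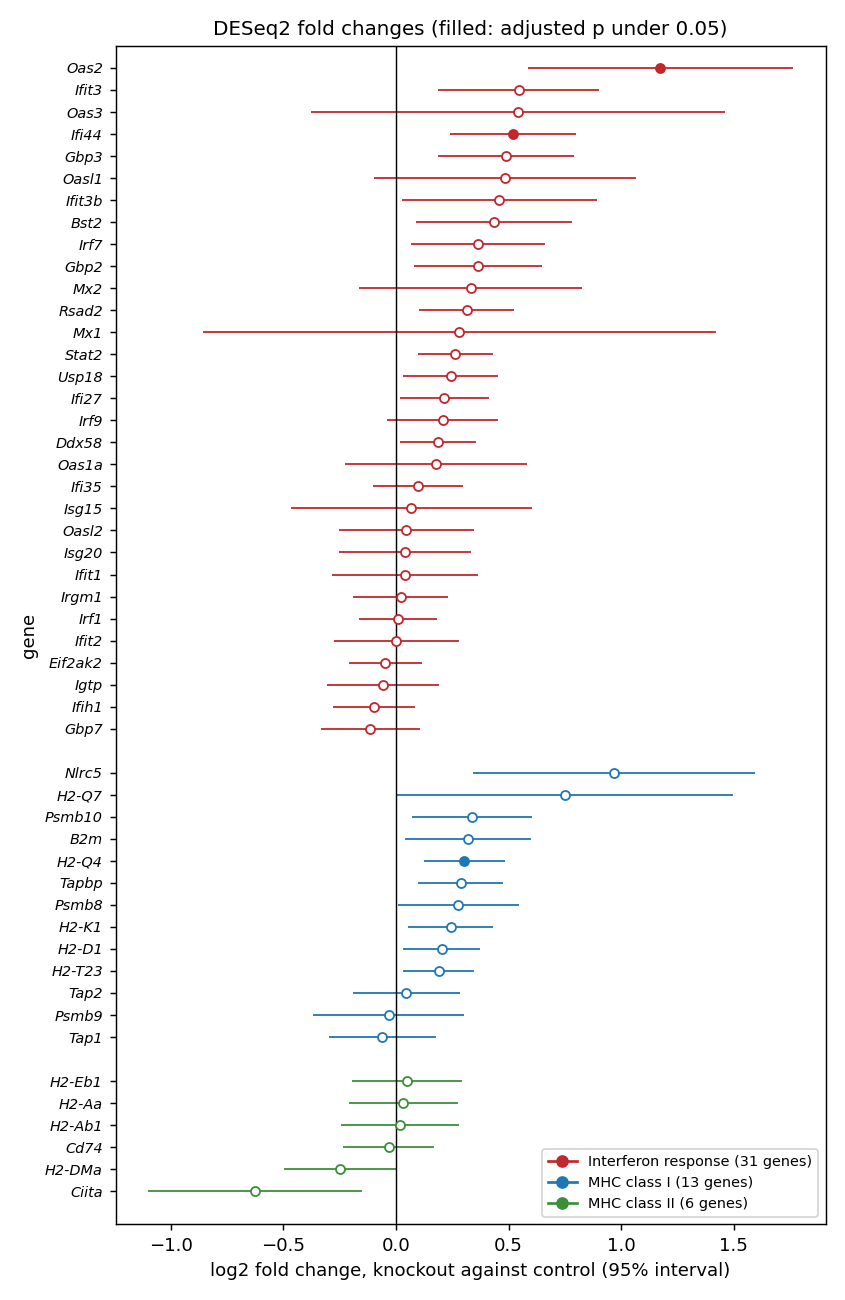
DESeq2 log2 fold change of knockout against control for each gene, with bars for the 95% interval and filled points for an adjusted p under 0.05, ordered within the 3 groups. Most points of the interferon response and class I groups lie right of 0, the 3 filled points are Oas2, Ifi44 and H2-Q4, and Ciita lies farthest left at -0.63.

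**Figure D3:**
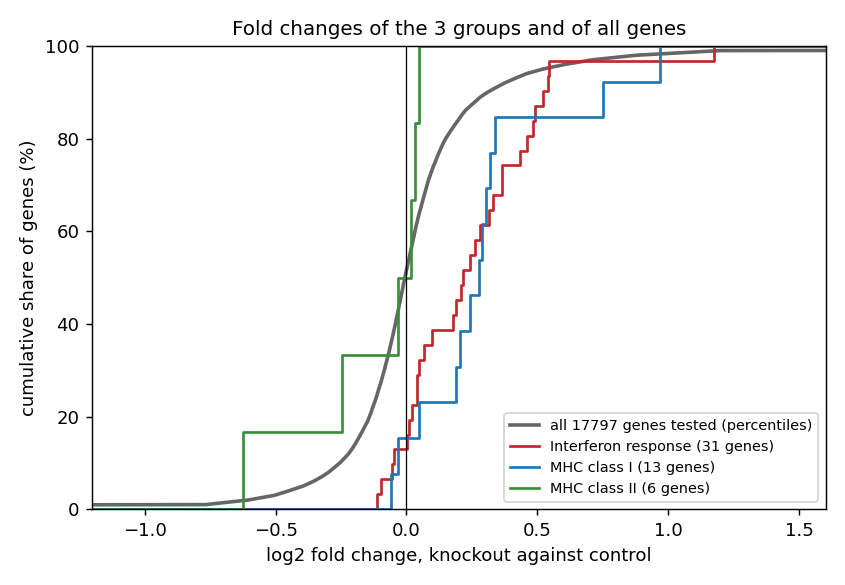
Cumulative share of genes against log2 fold change for the 3 groups and, in grey, for all 17797 genes tested. The interferon response and class I curves run right of the grey curve through the middle of the plot, with medians of 0.22 and 0.28, and the class II curve crosses 50% near 0.

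The signal came unevenly from the knockout libraries. Knockout 3 was the highest of the 6 libraries for 13 interferon response and 7 class I genes, and knockout 1 for 13 and 4, whereas knockout 2 was the highest for none of the 50; over all genes tested these libraries (knockouts 3, 1 and 2) were the highest for 14.6%, 14.1% and 13.5%. Knockout 1 lay above all controls for 24 of 31 interferon response genes and 10 of 13 class I genes, and knockout 3 for the same numbers of each group. Knockout 2 did so for 12 and 3. The shares of all genes were 24.9%, 24.3% and 23.9% for knockouts 1, 3 and 2. Relative to the control mean, the median log2 level of the interferon response was 0.22, 0.01 and 0.27 in knockouts 1 to 3, that of class I was 0.28, 0.07 and 0.29, and that of class II was 0.21, -0.13 and -0.16.

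**Figure D4:**
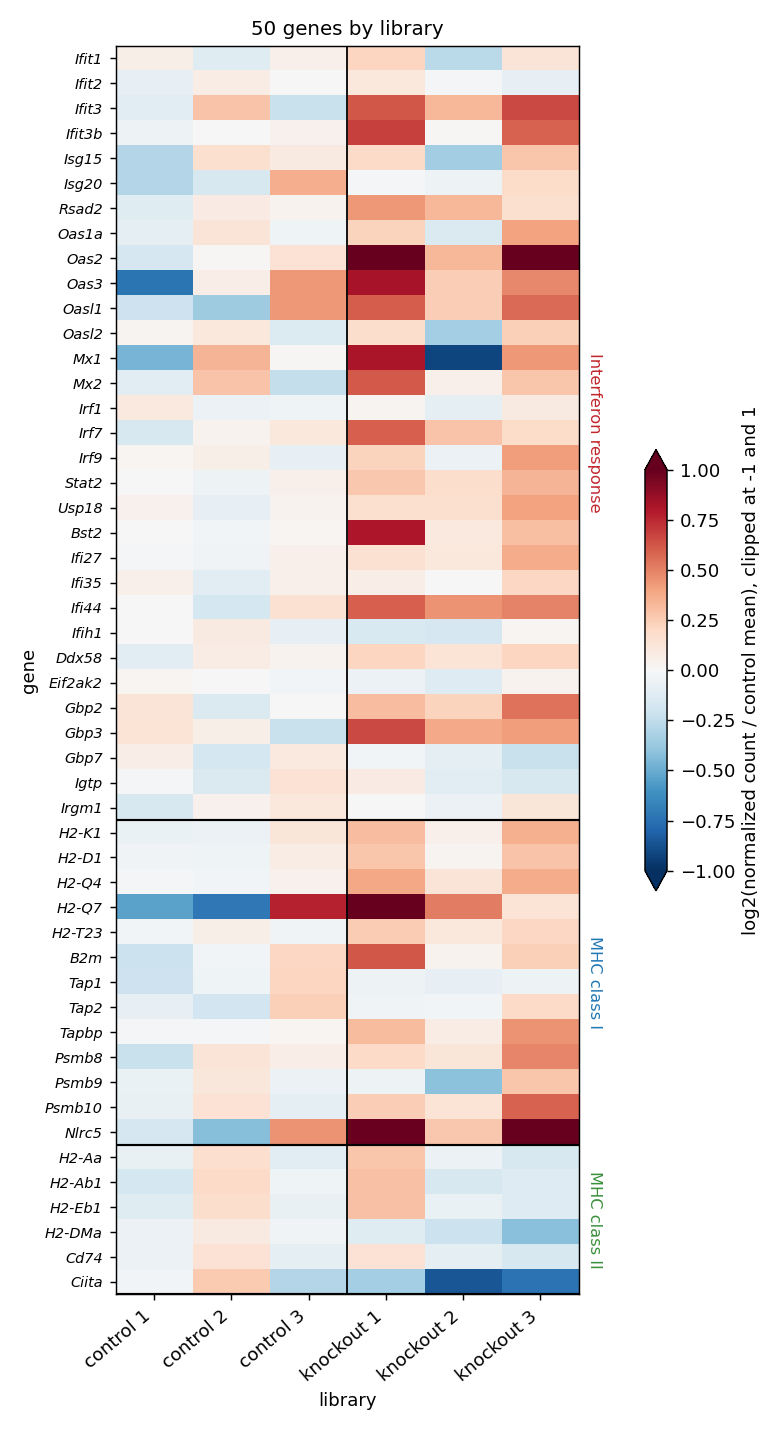
Normalized count of each gene in each library as log2 of its ratio to the control mean, red above and blue below, clipped at -1 and 1. The columns of knockout 1 and knockout 3 are mostly red through the interferon response and class I rows, the column of knockout 2 is paler, and in the class II rows the columns of control 2 and knockout 1 are mostly red.

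Leaving out single libraries changed which of the 50 genes passed in DESeq2. With knockout 2 left out, 405 of all genes passed, against 389 with all 6 libraries, and 9 of the 50 did: Ifit3b, Oas2, Stat2, Ifi44, H2-K1, H2-D1, H2-Q4, Tapbp and Nlrc5. With control 3 left out, 952 of all genes and 7 of the 50 passed: Oas2, Stat2, Ifi44, H2-K1, H2-Q4, H2-Q7 and Nlrc5. With control 2 left out, only Ifit3 of the 50 passed, of 332 genes in all, and with knockout 3 left out, only Rsad2, of 318. With control 1 or knockout 1 left out, none of the 50 passed, of 412 and 153 genes in all. The median log2 fold changes of the interferon response, class I and class II groups were 0.17, 0.21 and -0.14 without knockout 1. They were 0.31, 0.35 and 0.04 without knockout 2. The sum of hepatocyte genes was highest in knockout 1 and next highest in knockout 2, so neither fit left out both of these libraries.

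Among effectors that act on viral RNA was the largest fold change of the 50 genes. Oas2 (chr5:120730333-120749853, minus strand), one of the oligoadenylate synthetases that activate the RNA-degrading enzyme RNase L, was at 115, 131 and 143 normalized counts in controls 1 to 3 and 349, 163 and 365 in knockouts 1 to 3. All 3 knockouts exceeded every control, and knockout 2 lay close to control 3. Oas2 rose 2.26-fold (95% interval 1.50 to 3.40, log2 1.17 ± 0.30 SE, DESeq2 adjusted p = 0.00869), and edgeR gave an adjusted p of 0.261. Oas1a, another synthetase, was at 218, 255 and 227 against 272, 211 and 309, with overlapping groups (log2 0.18, DESeq2 adjusted p = 0.856). Oas1a shares 57.6% of its 50-base stretches with its near copy Oas1g, so its counts are uncertain.

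Oas3, which makes the same second messenger, was near 33.0 and 47.9 normalized counts on average, and the related Oasl1 and Oasl2 had log2 fold changes of 0.48 and 0.05, none past the threshold. Mx1 and Mx2, dynamin-like GTPases that trap viral components, were likewise low. Mx1 was at 19.8, 34.6 and 27.6 in controls and 48.2, 14.4 and 36.9 in knockouts, and Mx2 at 143, 187 and 130 against 235, 159 and 186. Both sets overlapped.

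Ifi44 (chr3:151730922-151749960, minus strand), an interferon-induced antiviral gene, was at 428, 378 and 473 normalized counts in controls and 647, 584 and 603 in knockouts. The groups were separated by more than 100 counts, and here knockout 2 was near the other knockouts. Ifi44 rose 1.43-fold (95% interval 1.18 to 1.74, log2 0.52 ± 0.14 SE, DESeq2 adjusted p = 0.0194), and edgeR gave an adjusted p of 0.250. Oas2 and Ifi44 share no 50-base stretch with another gene.

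None of the 4 Ifit genes, whose proteins bind foreign RNA and block its translation, passed the threshold. Ifit3 was at 320, 422 and 297 in controls and 532, 437 and 548 in knockouts, all knockouts above all controls by a narrow margin (log2 0.54 ± 0.18 SE, DESeq2 adjusted p = 0.0907). Its neighbour Ifit3b was at 198, 206 and 212 against 330, 207 and 310, with knockout 2 inside the control range (log2 0.46 ± 0.22 SE, DESeq2 adjusted p = 0.385). Ifit3 shares 51.2% of its 50-base stretches with Ifit3b, and Ifit3b shares 44.5% with Ifit3, so reads could be split between them. Ifit1, from the same cluster on chromosome 19, was at 519, 457 and 516 against 576, 413 and 543, and the log2 fold change of Ifit2 was 0.00.

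Isg15, a ubiquitin-like protein among the most used markers of type I interferon, did not separate the genotypes: 109, 150 and 142 against 153, 105 and 162 (log2 0.07, DESeq2 adjusted p = 0.976). The following interferon response genes were singled out after their values were seen. Rsad2, or viperin, an antiviral radical SAM enzyme, was at 1551, 1791 and 1731 against 2286, 2130 and 1895 (log2 0.31 ± 0.11 SE, DESeq2 adjusted p = 0.0993). Bst2, or tetherin, which holds budding virions at the cell surface, was at 668, 651 and 675 against 1165, 712 and 816, with knockout 1 far above the rest (adjusted p = 0.225 in DESeq2). Usp18, the protease that removes ISG15 from proteins, Ifi27 and the RNA sensor Ddx58 (RIG-I) had log2 fold changes of 0.24, 0.22 and 0.19 and non-overlapping groups, with none past the threshold.

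The remaining effectors and sensors had fold changes near 0, and none passed. Ifih1 (MDA5), a sensor of long double-stranded RNA, was at 3056, 3261 and 2894 in controls and 2758, 2735 and 3111 in knockouts (log2 -0.10). The kinase gene Eif2ak2 (PKR), which halts translation when it binds double-stranded RNA, had a log2 fold change of -0.05. Isg20, Ifi35 and Irgm1 had log2 fold changes of 0.04, 0.10 and 0.02.

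None of the 4 transcription factor genes of the list passed. Stat2, which joins IRF9 in the ISRE-binding complex, was at 2476, 2395 and 2569 in controls and 2989, 2795 and 3139 in knockouts. All knockouts exceeded all controls, but the log2 fold change of 0.26 ± 0.08 (SE) did not pass (DESeq2 adjusted p = 0.0720). Irf7, the factor that amplifies interferon production, was at 526, 603 and 632 against 888, 714 and 667, again without overlap (log2 0.37 ± 0.15 SE, DESeq2 adjusted p = 0.248). Irf9 was at 2034, 2093 and 1899 against 2346, 1924 and 2685, with knockout 2 inside the control range. Irf1, an early target of type II interferon, was at 3615, 3257 and 3284 against 3454, 3168 and 3600 (log2 0.01).

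None of the GTPase genes typical of the type II interferon response passed. Gbp2, a guanylate-binding protein that coats intracellular pathogens, was at 595, 492 and 547 against 676, 634 and 794, without overlap (log2 0.37 ± 0.14 SE, DESeq2 adjusted p = 0.204). Gbp3, also singled out after its values were seen, was at 502, 477 and 393 against 722, 594 and 611 (log2 0.49 ± 0.15 SE, DESeq2 adjusted p = 0.0608). Gbp7, encoded next to them on chromosome 3, was at 1635, 1382 and 1677 against 1532, 1463 and 1341 (log2 -0.11), and Igtp, an immunity-related GTPase, at 944, 861 and 1054 against 1010, 887 and 852 (log2 -0.06).

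**Figure D5:**
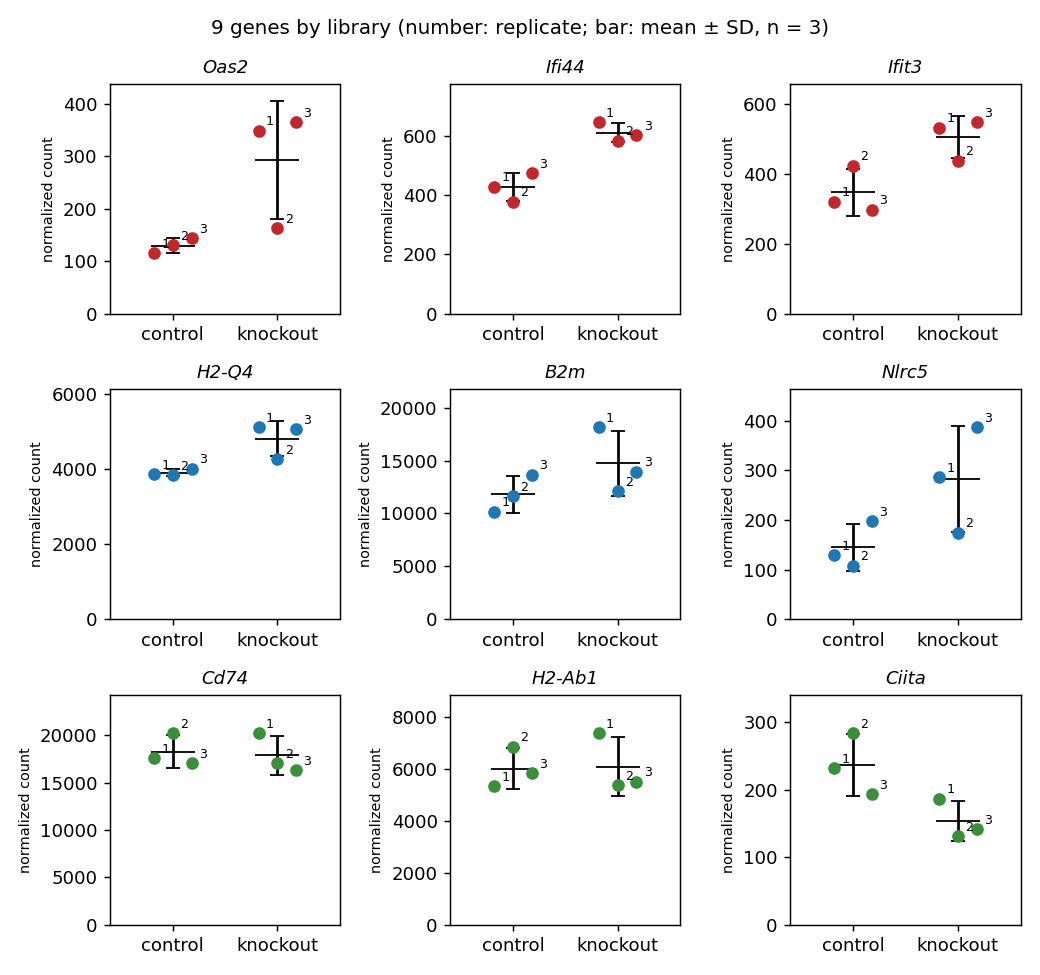
Normalized counts of 9 genes in each library, with the replicate number beside each point and bars for mean ± SD (n = 3). Knockout 2 lies near the controls for Oas2, H2-Q4, B2m and Nlrc5 but not for Ifi44, Cd74 and H2-Ab1 overlap between genotypes, and Ciita is lower in each knockout library than in any control.

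Among class I genes, 1 heavy chain rose, and the classical heavy chains had estimates of similar size that did not pass. H2-Q4 (chr17:35379617-35385290, plus strand), a non-classical heavy chain, was at 3852, 3828 and 4001 normalized counts in controls and 5099, 4258 and 5047 in knockouts, all knockouts above all controls. H2-Q4 rose 1.23-fold (95% interval 1.09 to 1.40, log2 0.30 ± 0.09 SE, DESeq2 adjusted p = 0.0476), and edgeR gave an adjusted p of 0.250. H2-Q4 shares 36.4% of its 50-base stretches with other genes and overlaps the exons of Gm11131 on the opposite strand, so its counts are uncertain. The classical heavy chains, which present peptides to CD8 T cells, did not pass: H2-K1 was at 29598, 29655 and 33578 against 38222, 32068 and 39540 (log2 0.24 ± 0.10 SE, DESeq2 adjusted p = 0.206). H2-D1 was at 26368, 26189 and 28375 against 32654, 27565 and 32944 (log2 0.20 ± 0.09 SE, DESeq2 adjusted p = 0.282). In both, knockout 2 fell within the control range.

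H2-T23, the Qa-1 heavy chain, had a log2 fold change of 0.19 with no overlap between the groups (DESeq2 adjusted p = 0.262). H2-Q7, a Qa-2 heavy chain, varied widely, at 142, 125 and 349 in controls and 517, 292 and 226 in knockouts (log2 0.75 ± 0.38 SE, DESeq2 adjusted p = 0.432). H2-Q7 shares 14.0% of its 50-base stretches with H2-Q10, a class I gene of liver, which was at 5, 6 and 17 normalized counts in controls and 1448, 41 and 7 in knockouts. The share of H2-Q10 reads in the H2-Q7 counts was not tested. B2m was at 10172, 11606 and 13650 against 18127, 12125 and 13945, with knockout 1 far above and knockout 2 inside the control range (log2 0.32 ± 0.14 SE, DESeq2 adjusted p = 0.320).

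None of the genes that make, carry and load peptide passed. Tapbp, or tapasin, which bridges empty class I molecules to the peptide transporter, was at 20941, 20988 and 21458 against 26291, 22236 and 28812, without overlap (log2 0.29 ± 0.10 SE, DESeq2 adjusted p = 0.0902). Tapbp overlaps exons of Gm19412 on the opposite strand and of Zbtb22 on its own. In all, 16 of the 50 genes overlap exons of another gene on the opposite strand and 5 on the same strand, and the counting of such reads is not known here. The transporter subunits were near 0: Tap1 was at 1332, 1486 and 1782 against 1483, 1446 and 1482 (log2 -0.06), and Tap2 had a log2 fold change of 0.05. Of the immunoproteasome subunits, Psmb10 was at 1349, 1569 and 1333 against 1678, 1556 and 2134 (log2 0.34 ± 0.14 SE, DESeq2 adjusted p = 0.218), Psmb8 had 0.28 and Psmb9, whose start lies beside that of Tap1, had -0.03.

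The class I and class II transactivators lay on opposite sides of 0. Nlrc5 (chr8:94434356-94527272, plus strand) was at 129, 108 and 197 normalized counts in controls and 286, 174 and 386 in knockouts. Knockout 2 was below control 3. The estimate of 1.95-fold (95% interval 1.27 to 3.01, log2 0.97 ± 0.32 SE) did not pass (DESeq2 adjusted p = 0.0827, edgeR adjusted p = 0.378). Ciita (chr16:10480059-10528418, plus strand) was at 232, 284 and 193 in controls and 187, 131 and 142 in knockouts, each knockout below each control. Its estimate of 0.648-fold (95% interval 0.466 to 0.902, log2 -0.63 ± 0.24 SE) did not pass either (DESeq2 adjusted p = 0.190, edgeR adjusted p = 0.414). The difference between these 2 fold changes was not tested.

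The class II chains themselves overlapped between genotypes. H2-Ab1, the beta chain of I-A, was at 5341, 6871 and 5846 in controls and 7393, 5380 and 5506 in knockouts (log2 0.02). Its partner H2-Aa was at 5461, 6442 and 5321 against 6962, 5516 and 5145 (log2 0.03), and the I-E beta chain H2-Eb1 at 4963, 6115 and 5144 against 6639, 5175 and 4958 (log2 0.05). Cd74 was at 17546, 20235 and 17033 against 20204, 17067 and 16331 (log2 -0.03). In these 4 genes control 2 was the highest control and knockout 1 the highest knockout. H2-DMa, which helps exchange the invariant chain fragment for peptide, was at 762, 845 and 777 against 730, 683 and 596, each knockout below each control (log2 -0.25 ± 0.13 SE, DESeq2 adjusted p = 0.455).

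The genes upstream of these targets were examined as lists, chosen by role and not by how they moved, though earlier results of these data were known. Of 21 interferon ligand genes, 20 had 0 counts in all 6 libraries, which allows up to 3 counts of a library's total, and Ifng had 6 counts, all in control 3. Of 16 receptor and signalling genes, none passed in either direction in DESeq2 (median log2 fold change 0.04). An unadjusted p under 0.05 was reached by 1 of the 16 in DESeq2, against 11.5% of all genes. In edgeR 2 did so, against 9.48% of the 25210 genes it tested. The receptor genes Ifnar1 and Ifngr1 had log2 fold changes of 0.01 and 0.00. None of 16 nucleic acid sensing genes passed (median 0.05). Of these, 1 had an unadjusted p under 0.05 in DESeq2 and 1 in edgeR, beside the same shares of 11.5% and 9.48%.

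Of 42 further interferon-stimulated genes, 41 were tested, 1 rose and none fell in DESeq2, where 1.53% of all genes rose and 0.657% fell. Their median log2 fold change was 0.21, and 35 of 41 lay above 0. In the higher direction 13 had an unadjusted p under 0.05 in DESeq2, against 6.51% of all genes. In edgeR 14 did, against 1167 of the same 17797 genes. The 1 that rose was Ifi203, a gene of the interferon-inducible p200 family, at 1118, 1016 and 1056 against 1574, 1555 and 1511, with all 3 knockouts alike (log2 0.54 ± 0.09 SE, DESeq2 adjusted p = 5.01e-06, edgeR adjusted p = 0.0726). Of 15 tested genes of class I assembly outside the 13, and of 13 tested class II genes outside the 6, none passed (medians 0.09 and 0.08). In DESeq2 an unadjusted p under 0.05 was reached by 1 of these class I genes (H2-Q2, log2 -0.21), against 11.5% of all genes. It was reached by 3 of the class II genes (H2-DMb2 and Rfxap with fold changes below 0 and Ctss above it). In edgeR the counts were 1 and 3, against 9.48% of the 25210 genes it tested. Rfx5, a subunit of the factor that binds the X box, had a log2 fold change of -0.05.

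Immune cells within the preparation were followed by marker lists. Of 10 macrophage genes, 4 rose in DESeq2 (C1qb, C1qc, Cd68 and Mrc1), against 1.53% of all genes. By edgeR none passed (lowest adjusted p 0.203). In edgeR 5 had an unadjusted p under 0.05 in the higher direction, against 1167 of the 17797 genes. The list summed to between 11865 and 12994 normalized counts in controls and to 14599, 13308 and 12387 in knockouts 1 to 3. C1qa, the most abundant of them, was at 5872, 6473 and 5138 against 4692, 5666 and 4099, and the other 9 genes, a split chosen after the values were seen, summed to between 6522 and 6874 in controls and to 9906, 7642 and 8288 in knockouts. The 5 pan-leukocyte genes summed to between 3074 and 3198 in controls and to 3773, 3148 and 3345 in knockouts, with none called. Of these 5, 1 had an unadjusted p under 0.05 in DESeq2, against 11.5% of all genes. In edgeR 1 did, against 9.48% of the 25210 genes it tested.

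Class I genes summed to between 102925 and 114968 in controls and to 134594, 111343 and 135840 in knockouts. The dendritic cell list summed to between 1516 and 1569 in controls and to 1754, 1542 and 1788 in knockouts, with no gene called. Itgax and Zbtb46, at means of 709 and 679 normalized counts, held most of this sum. Every other gene of the list had a mean of at most 114. Of the 5 tested genes of the dendritic cell list, 1 had an unadjusted p under 0.05 in DESeq2, against 11.5% of all genes. In edgeR 1 did, against 9.48% of the 25210 genes it tested. In DESeq2 this was Cd209a, lower in each knockout than in any control (log2 -1.11). The B cell gene Cd79a was at 1657, 1536 and 1628 normalized counts in controls and 1327, 1393 and 1379 in knockouts (DESeq2 adjusted p = 0.188), and the lower Cd79b, which was not given a DESeq2 adjusted p, overlapped between the groups. T and NK cell genes summed to at most 104 normalized counts in any library.

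None of 8 endothelial genes passed. In DESeq2 0 of the 8 had an unadjusted p under 0.05, against 11.5% of all genes. In edgeR 1 did, against 9.48% of the 25210 genes it tested. Of 7 mesenchymal genes, 3 rose in DESeq2 (Col3a1, Pdgfra and Dcn) against 1.53% of all genes. Of 5 alpha-cell genes, 3 fell (Gcg, Irx2 and Ttr) against 0.657%. By edgeR only Pdgfra of these 6 passed (adjusted p = 0.0343). Log2 fold changes were above 0 for 5 of the 7 mesenchymal genes and below it for 2, Rgs5 (-0.07) and Acta2. Acta2 was at 2558, 3274 and 2897 normalized counts in controls and 2495, 2234 and 2417 in knockouts (log2 -0.29, DESeq2 adjusted p = 0.168). The acinar list summed to between 358225 and 717006 in controls and between 904244 and 1290910 in knockouts. None of its 6 genes passed in DESeq2 or in edgeR (lowest edgeR adjusted p 0.187). In the higher direction 6 had an unadjusted p under 0.05 in DESeq2, against 6.51% of all genes. In edgeR 5 did, against 1167 of the same 17797 genes. The part of these cell types, of liver transcripts and of sex in the interferon response, class I and class II values was not tested.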

How the data were processed

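The authors deposited 1 table of unnormalized read counts per gene for the 6 libraries, with no unused sample column. FastQC, STAR, featureCounts, DESeq2 and the build mm10 are named in the submitters' processing notes, the file name records trimming with cutadapt, and the strand and multi-mapping settings are not given in the sources used here. Gene identifiers and symbols were identical to GENCODE M21 (GRCm38), which gave coordinates and exon lengths for the TPM values computed here.

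DESeq2 1.42.0 (R 4.3.3) was run on genes with at least 10 counts in total, with genotype as the only term, the Wald test, unshrunken fold changes and Benjamini-Hochberg adjustment over all genes tested, at a threshold of 0.05. Normalized counts are counts divided by DESeq2 size factors. The edgeR 4.0.16 quasi-likelihood test and 10 further settings were alternatives. Shared sequence was the share of a gene's 50-base stretches found in transcripts of another gene.

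The genes and lists were chosen with earlier results of these data known. Genes named by rule were those past the threshold in either test, a set fixed by role, and the 3 most positive and 3 most negative fold changes of each group with a mean of at least 50 normalized counts (35 in all). The other 15 of the 50 genes, and marker genes given singly, were named after their values were seen. The hepatocyte list was added. Replicates differed by far more than counting error (chi-square 40.0 to 120.2 times its degrees of freedom). Same-numbered libraries did not deviate together (correlations of -0.0589 to 0.0102), so no block was used. Results for some genes of the pathway and marker lists are not reported here.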

Additional observations from a re-analysis of the deposited data

How the results depend on the processing

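Scaling hardly moved the values: with TMM factors in DESeq2, and with a filter of at least 10 counts in at least 3 libraries, Oas2, Ifi44 and H2-Q4 again passed, and 2 genes of the other pathway lists passed in place of 1. Without a low-count filter, no class I gene passed. By edgeR, 0 interferon response, 0 class I and 0 other pathway genes passed, and 29 genes in all. With the replicate number as a block, which the labels do not tie to a shared animal or day, 1 interferon response gene (Oas2) and 2 class I genes (Tapbp and Nlrc5) passed, of 405 genes in all, and the 3 median log2 fold changes were 0.20, 0.28 and -0.01. No class II gene passed under any of the 11 alternatives.

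Leaving out 1 library at a time gave 153 (without knockout 1) to 952 (without control 3) genes in all, 0 to 4 interferon response, 0 to 5 class I and 2 to 5 other pathway genes past the threshold. The median log2 fold change ran from 0.16 to 0.31 for the interferon response, from 0.18 to 0.35 for class I and from -0.14 to 0.09 for class II. Over the 11 alternatives the adjusted p ran from 1.675e-08 to 0.261 for Oas2, from 0.00151 to 0.251 for Ifi44 and from 9.576e-05 to 0.458 for H2-Q4. The sign turned, always for a value that did not pass, when 1 library was left out for 16 of the 50 genes, given with their range over the 6 fits: Ifit1 (-0.057 to 0.17), Isg15 (-0.061 to 0.24), Mx1 (-0.089 to 0.64), Irf1 (-0.033 to 0.060), Igtp (-0.13 to 0.022), Tap1 (-0.15 to 0.061), Tap2 (-0.042 to 0.18), Psmb9 (-0.22 to 0.12), H2-Aa (-0.11 to 0.12), H2-Ab1 (-0.15 to 0.12), H2-Eb1 (-0.094 to 0.15), Cd74 (-0.13 to 0.047), Ifit2 (-0.053 to 0.041), Isg20 (-0.087 to 0.27), Oasl2 (-0.059 to 0.21) and Irgm1 (-0.053 to 0.077). The cause was not tested. Of 385 alternative values of the 35 genes named by rule, 326 kept their sign and their side of the threshold, 18 lost and 13 gained a call, and 28 changed sign. A lone low gene such as Mx1 or Oas3 has too few counts for small differences to be seen.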
